A study of Mus musculus with 2 samples.

Results

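*Ifng*, the gene for interferon-γ, together with 4 interferon receptor genes (*Ifngr1*, *Ifngr2*, *Ifnar1* and *Ifnar2*), the transcription factor gene *Stat2* and 3 interferon regulatory factor genes (*Irf1*, *Irf7* and *Irf8*), was followed across the cell types of the mouse temporomandibular joint (TMJ). These 9 genes were taken by symbol from the 32285 genes of the count tables. The 2 libraries came from wild-type C57BL/6 females aged 8 to 10 weeks by the labels, 1 from TMJs injected with phosphate-buffered saline (PBS) and 1 from TMJs injected with complete Freund's adjuvant (CFA), an oil emulsion of killed mycobacteria that inflames a joint. Both sets of joints were collected 3 weeks after injection, and the whole dissected joint, from condyle and disc to the adjoining bone, muscle and ligament, was dissociated as 1 tissue. Beads against CD45 had been used to deplete immune cells from the suspension, so the immune cells described here are those that stayed in it. The methods give n = 3 for the collected tissue and describe the tissue of a group as digested in 1 tube, without saying whether n counts mice per group.

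Interferon-γ is released mainly by T and natural killer (NK) cells and is bound by a receptor of IFNGR1 and IFNGR2, which signals through JAK kinases. Type I interferons are bound by IFNAR1 and IFNAR2, and their signal runs through a complex that holds STAT2 and IRF9. IRF1 is induced quickly by interferon-γ and by other inflammatory signals, IRF7 amplifies type I interferon production and is itself induced by interferon, and IRF8 directs the development of monocytes, dendritic cells and B cells as well as responding to interferon-γ.

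Of 7671 PBS and 5709 CFA barcodes, 2667 and 4014 had at least 500 genes, at most 10% mitochondrial and at most 1% hemoglobin unique molecular identifiers (UMIs), with 27201994 and 44432717 UMIs in all. The hemoglobin limit removed 3178 PBS and 339 CFA barcodes. Median depth was 7022 UMIs in PBS cells and 6510 in CFA cells, and 2 of the kept barcode sequences occurred in both libraries. Markers named 2253 PBS and 3403 CFA cells. A total of 9 cell types held at least 50 cells in each library and were compared between libraries. Levels are UMIs of a gene per 1000000 UMIs of the cell type (CPM), and brackets give 95% intervals from counting error (exact Poisson for a level, exact conditional binomial for the CFA to PBS ratio, exact Clopper-Pearson for a share of cells). Each condition had 1 library, so no test between conditions was possible, and the spread between mice is not in any interval.

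All 9 members are protein-coding genes. In GRCm38 with the GENCODE M21 annotation, *Ifng* (chr10:118441046-118445892, plus strand), *Ifngr1* (chr10:19591949-19610229, plus) and *Stat2* (chr10:128270559-128292849, plus) lie on chromosome 10. *Ifnar2* (chr16:91372783-91405589), *Ifnar1* (chr16:91485238-91507441) and *Ifngr2* (chr16:91547072-91565623) follow each other on the plus strand of chromosome 16. *Irf1* is at chr11:53770014-53778374 (plus), *Irf7* at chr7:141262706-141266481 (minus) and *Irf8* at chr8:120736358-120756694 (plus). *Irf1* overlaps *Gm17334* and *Irf7* overlaps *Phrf1* on the opposite strand, while *Ifng*, *Ifnar2* and *Irf8* each overlap a same-strand gene model (*Gm49751*, *Gm21970* and *Gm20388*). Whether strand was used in counting was not given in the sources used here, so reads of these overlapping pairs may not be fully separated.

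The promoters of the 4 transcription factor genes are shown because all but 1 of the ratios past 2-fold were theirs. Each window runs from 250 bases before to 50 bases after the RefSeq start site (GRCm38.p6), 5′ to 3′ on the strand of the gene. Capitals mark TTCNNNGAA, the gamma-activated sequence (GAS), or GAAA, any 2 bases and GAAA, the interferon-stimulated response element (ISRE), both searched on both strands (the first reads the same on each).
Stat2 (chr10:128270248-128270547): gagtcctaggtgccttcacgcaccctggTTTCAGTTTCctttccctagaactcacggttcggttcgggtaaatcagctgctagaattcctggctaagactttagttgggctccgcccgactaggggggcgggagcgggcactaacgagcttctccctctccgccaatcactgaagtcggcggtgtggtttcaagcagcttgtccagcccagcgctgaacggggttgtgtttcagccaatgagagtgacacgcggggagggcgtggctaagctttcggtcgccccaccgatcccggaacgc
Irf1 (chr11:53769764-53770063): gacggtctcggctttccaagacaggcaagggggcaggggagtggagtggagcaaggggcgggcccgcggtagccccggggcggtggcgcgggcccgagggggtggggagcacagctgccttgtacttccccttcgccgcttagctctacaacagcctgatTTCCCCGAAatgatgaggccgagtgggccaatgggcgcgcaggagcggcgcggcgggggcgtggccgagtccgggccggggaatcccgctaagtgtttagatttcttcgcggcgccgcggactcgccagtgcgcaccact
Irf7 (chr7:141266375-141266674): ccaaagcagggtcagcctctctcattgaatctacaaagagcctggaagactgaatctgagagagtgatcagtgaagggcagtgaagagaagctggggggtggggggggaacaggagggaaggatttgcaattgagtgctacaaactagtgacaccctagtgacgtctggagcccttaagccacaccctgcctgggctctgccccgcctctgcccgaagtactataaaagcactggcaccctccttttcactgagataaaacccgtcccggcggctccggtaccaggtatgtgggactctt
Irf8 (chr8:120736108-120736407): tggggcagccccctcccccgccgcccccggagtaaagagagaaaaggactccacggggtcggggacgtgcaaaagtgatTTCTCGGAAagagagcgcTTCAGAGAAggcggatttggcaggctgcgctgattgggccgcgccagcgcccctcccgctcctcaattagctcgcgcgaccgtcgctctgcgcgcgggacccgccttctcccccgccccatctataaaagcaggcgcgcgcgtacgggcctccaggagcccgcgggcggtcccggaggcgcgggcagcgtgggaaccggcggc

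Counted from the start site as 0, the *Irf1* window holds 1 GAS match from -90 to -82 and the *Irf8* window holds 2, from -171 to -163 and from -153 to -145. The *Stat2* window holds 1 ISRE match on its minus strand, from -222 to -213, and the *Irf7* window holds neither pattern. *Ifng*, *Ifnar1* and *Ifnar2* also have 1 GAS match each, *Ifngr1* and *Ifngr2* have none, and the second RefSeq windows of *Irf1* and *Irf8* have none. Over all 32851 windows of this length, 8.30% held a GAS and 3.44% an ISRE match. A match is a description of letters and not a bound site, and the absence of a match says only that these letters are not in this window.

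*Ifng* UMIs were almost confined to the CFA library, where most came from 1 T or NK cell. The CFA library held 258 *Ifng* UMIs in 24 kept cells and the PBS library 2 UMIs in 2 kept cells. Over all deposited barcodes, kept or not, the totals were 281 UMIs in 29 CFA barcodes and 3 UMIs in 3 PBS barcodes. T or NK cells, 42 in the CFA and 10 in the PBS library, held 197 of the CFA UMIs (76.4%) and both PBS UMIs.

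**Figure D1:**
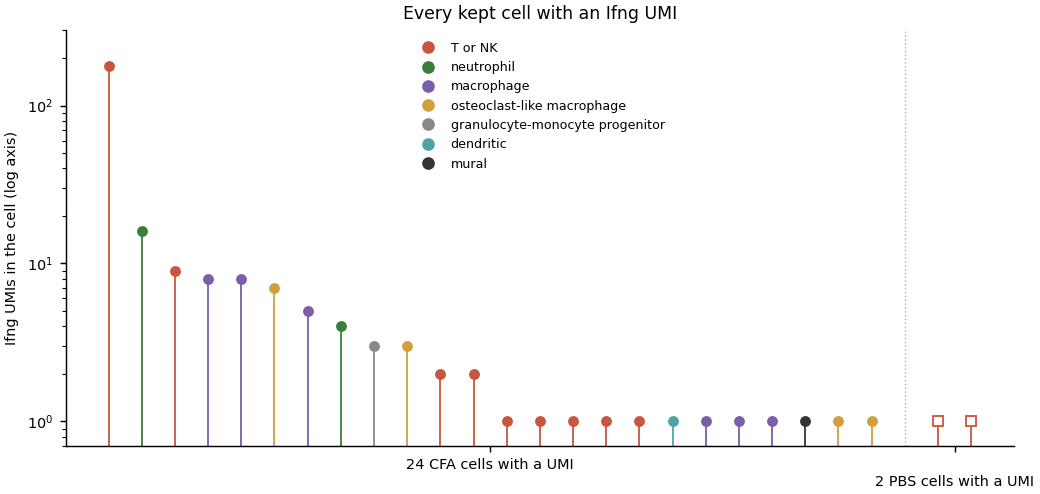
Each stem is 1 kept cell with at least 1 Ifng UMI, with its number of Ifng UMIs on a log axis and the cell type in colour. Filled circles are the 24 CFA cells and open squares the 2 PBS cells, and a single T or NK cell with 179 UMIs stands above the next, at 16.

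Among the 9 CFA T or NK cells with *Ifng*, 1 held 179 UMIs, 1 held 9, and the others held 1 or 2. The level over all CFA T or NK cells was 861 CPM [745–990], and it was 78.7 [46.6–124] without the UMIs of the top cell, a repeat chosen after its value was seen. The level in the 10 PBS T or NK cells was 45.4 CPM [5.50–164], whose interval overlaps the latter. An *Ifng* UMI was found in 9 of 42 CFA and 2 of 10 PBS T or NK cells, and no difference in this share was detectable with 10 PBS cells. *Cd3e*, a subunit of the T cell receptor complex, was detected in 8 of the 9 CFA *Ifng* cells and *Cd4* in 7 of them, against *Cd8a* in 1. Both PBS *Ifng* cells held *Ncr1* and *Klrb1c*, receptors of NK cells, and neither held *Cd3e*, but *Trbc2*, a T cell receptor constant gene, was in both and *Trac*, another, in 1. The T or NK cells as a whole, with or without *Ifng*, also differed in markers between the libraries. *Cd3e* was detected in 19 CFA cells but not in any PBS cell, while *Ncr1* was detected in 2 CFA cells and 4 PBS cells. *Trbc2* was detected in 21 CFA cells and 4 PBS cells. The part of this marker difference in the *Ifng* levels and shares was not tested.

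The other CFA cells with *Ifng* were 6 macrophages with 24 UMIs, 4 osteoclast-like macrophages with 12, 2 neutrophils with 20, 1 progenitor with 3, 1 dendritic cell with 1 and 1 mural cell with 1. At least 2 T or NK markers were also detected in 5 of these 6 macrophages, all 4 osteoclast-like macrophages, both neutrophils, the progenitor and the dendritic cell. Whether such barcodes hold more than 1 cell was not tested. No *Ifng* UMI was found in 884 CFA endothelial cells, which allows a share of cells with a UMI of up to 0.339% and does not limit the share expressing the gene, or in the CFA fibroblasts, Schwann cells, chondrocytes, tenocytes, satellite cells and B cells.

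The interferon-γ receptor genes were detected in every cell type compared, and 1 of their ratios between libraries passed 2-fold. *Ifngr1*, the ligand-binding chain, was highest in T or NK cells at 750 CPM [516–1053] in PBS and 655 [555–769] in CFA. Monocytes followed at 342 and 333 CPM. In endothelial cells *Ifngr1* was 187 CPM in PBS and 213 in CFA (ratio 1.14 [1.05–1.24]), and in fibroblasts 153 and 136 (0.892 [0.804–0.989]). The ratio was lowest in chondrocytes, with 75.7 and 48.3 CPM (0.638 [0.479–0.847]), and in mural cells, with 78.2 and 55.1 CPM (0.705 [0.552–0.898]). The chondrocytes of the libraries also differed in osteoblast or osteocyte markers, which summed to 8844 CPM in PBS and 28948 in CFA, beside 16610 and 21893 CPM of chondrocyte markers. The part of this difference in the chondrocyte values of any member was not tested. A part of unnamed cluster 19, with 29 PBS and 0 CFA cells, also carried chondrocyte markers and is not in the chondrocyte values. The *Ifngr1* ratio was above 1 in tenocytes, with 106 and 137 CPM (1.29 [1.06–1.58]). No *Ifngr1* ratio reached 2-fold in either direction in any of the 9 cell types.

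*Ifngr2*, the signalling chain, had its highest levels in monocytes, at 147 CPM in each library, and in macrophages, at 84.1 [53.9–125] in PBS and 120 [110–131] in CFA. T or NK cells, where *Ifngr1* was highest, held 0 *Ifngr2* UMIs in PBS and 4 in CFA (17.5 CPM [4.76–44.8]). Neutrophils had 27.1 CPM in PBS and 74.5 in CFA (2.75 [1.74–4.58]), the single receptor ratio past 2-fold. B cells had 57.6 and 99.3 CPM (1.72 [1.22–2.45]). In endothelial cells, fibroblasts, mural cells and tenocytes the ratios lay between 0.918 and 1.03 and each interval held 1. As counted, both chains were found in 75.1% of CFA osteoclast-like macrophages and 58.2% of CFA macrophages. The same share was 28.2% in CFA fibroblasts, 8.94% in CFA endothelial cells and 1.86% in CFA Schwann cells. Once cells were thinned to 2000 UMIs, to set depth equal, detection of both chains in the same cell was rare. It reached 8.50% of 294 CFA macrophages [5.58–12.3], where the product of the separate shares was 8.48%.

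No type I receptor gene was past 2-fold in any cell type compared. *Ifnar1* and *Ifnar2*, the chains that together bind interferon-α and -β, were high in dendritic cells, with 181 and 177 CPM of *Ifnar1* and 542 and 448 CPM of *Ifnar2* in PBS and CFA. These dendritic cells numbered 13 and 22 and carried *Siglech*, a marker of plasmacytoid cells, and *Clec9a* and *Flt3*. Fibroblasts had more *Ifnar2* in CFA, 171 against 122 CPM (1.40 [1.26–1.56]), and more *Ifnar1*, 35.6 against 26.6 (1.34 [1.06–1.68]). Neutrophils had 133 CPM of *Ifnar2* in PBS and 215 in CFA (1.62 [1.31–2.02]), and chondrocytes had 13.9 and 26.8 CPM of *Ifnar1* (1.92 [1.13–3.36]). Endothelial *Ifnar2* was slightly lower in CFA, 176 against 197 CPM (0.895 [0.819–0.979]).

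**Figure D2:**
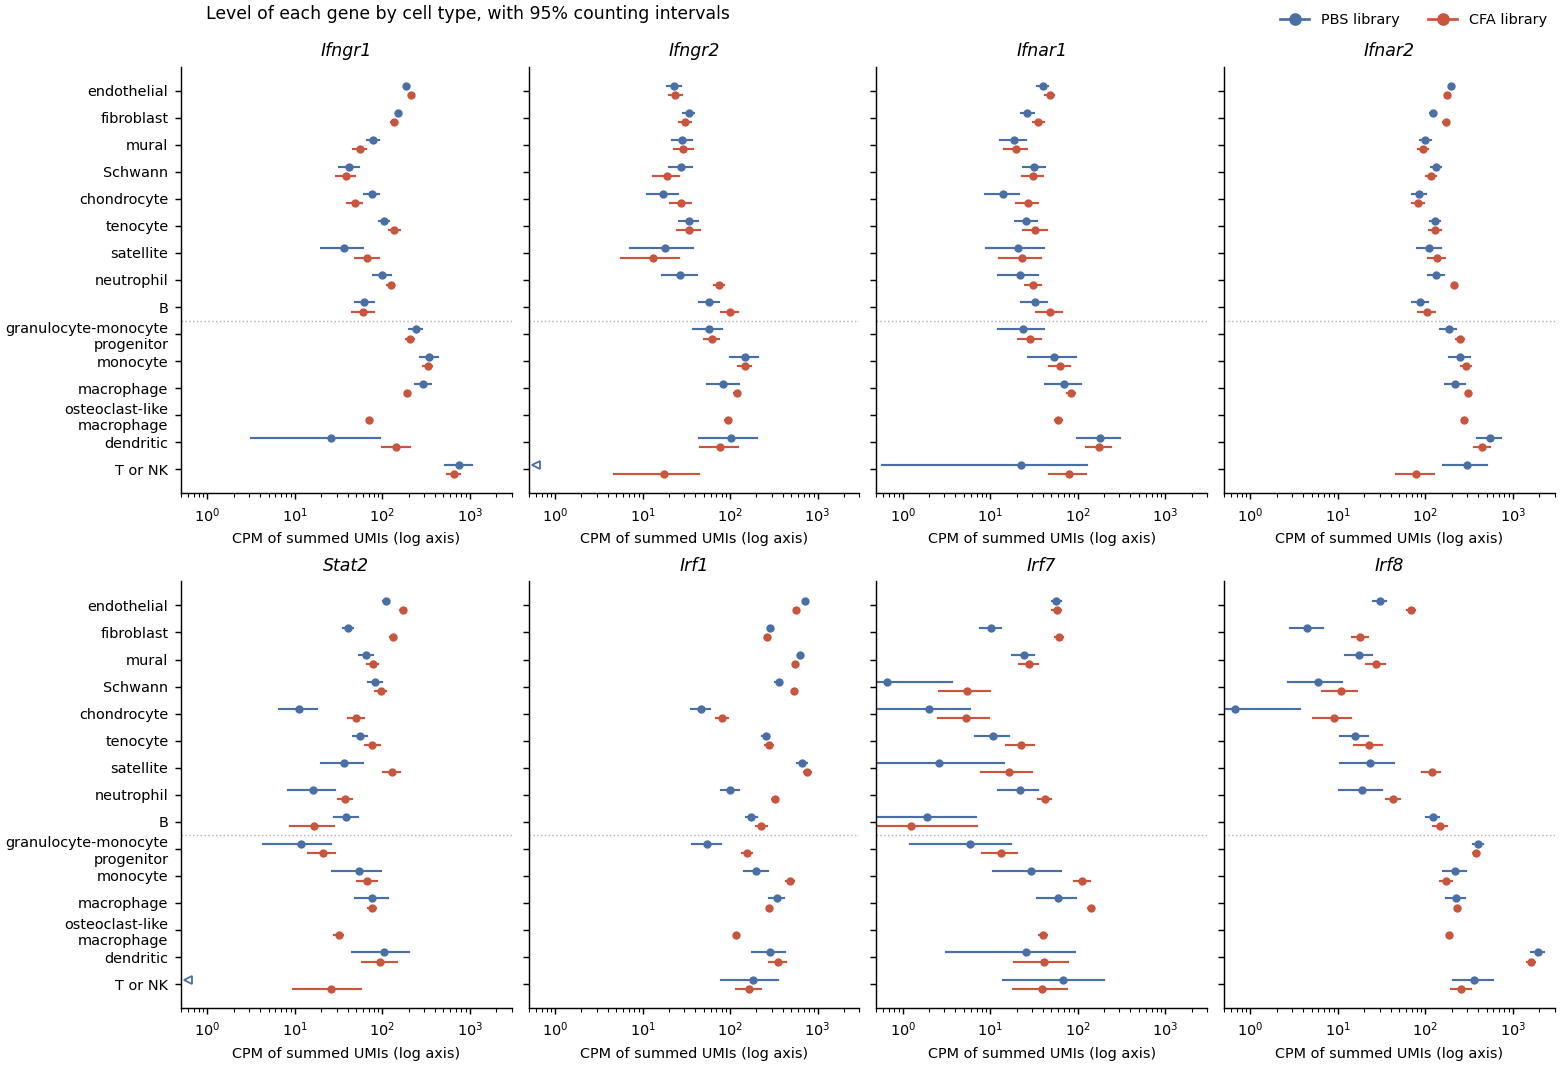
Levels of 8 genes in CPM (log axis) in PBS and CFA cells of 15 cell types, with 95% counting intervals; types above the dotted line have at least 50 cells in each library, libraries with under 10 cells of a type are not drawn, an open triangle is a level of 0, and intervals are cut at the left edge. Irf8 is highest in dendritic cells (1924 CPM in PBS, 1612 in CFA), Ifngr1 in T or NK cells, and the 2 libraries mostly overlap for the receptors.

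*Stat2*, which carries the type I signal into the nucleus, was at least 2-fold higher in CFA in 4 of the 9 cell types and at least 2-fold lower in B cells. Fibroblasts held 40.8 CPM [35.5–46.7] in PBS and 131 [121–141] in CFA, a ratio of 3.20 [2.74–3.76]. Chondrocytes, whose osteoblast markers also differed as given above, held 11.3 and 49.9 CPM (4.42 [2.62–7.90]), satellite cells 36.2 and 128 (3.52 [1.98–6.74]) and neutrophils 16.3 and 37.9 (2.33 [1.28–4.64]). These PBS values rest on few UMIs outside fibroblasts, 17 in chondrocytes, 14 in satellite cells and 12 in neutrophils. Macrophage markers carried 1.06 CPM of *Stat2* in PBS and 7.70 in CFA neutrophils (11.5 by the median marker), and their part was not tested. The neutrophil ratio is also pooled over clusters that were divided differently between the libraries, as given below. Endothelial cells, which had the highest PBS level of the compared types, went from 110 to 171 CPM (1.55 [1.39–1.73]) and tenocytes from 55.7 to 77.0 (1.38 [1.05–1.82]). The intervals of mural cells (1.19 [0.946–1.51]) and Schwann cells (1.16 [0.920–1.47]) held 1. Within mural clusters 11 and 21 the ratio was 1.07 [0.789–1.47] and 1.53 [1.06–2.21]. Within Schwann clusters 2 and 13 it was 1.11 [0.648–1.89] and 1.65 [1.16–2.37]. B cells went the other way, from 38.7 CPM (41 UMIs) to 16.3 CPM (13 UMIs), a ratio of 0.422 [0.207–0.803]. Within B cell cluster 17 the ratio was 0.676 [0.254–1.63], on 18 and 8 UMIs. Cluster 25 gave 0.286 [0.0691–0.897], on 15 and 4 UMIs. These clusters held 113 and 62 PBS cells and 65 and 59 CFA cells.

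Fibroblasts were 3 clusters, and the *Stat2* ratio was 3.38 [2.64–4.36] in cluster 6, 2.21 [1.67–2.94] in cluster 10 and 3.82 [2.65–5.59] in cluster 16. Clusters 6, 10 and 16 held 132, 162 and 128 PBS fibroblasts and 158, 92 and 59 CFA fibroblasts, so the ratios within clusters are given beside the pooled one. *Irf7*, a factor induced by type I interferon, had the largest fibroblast ratio of all members. Its level was 10.1 CPM [7.54–13.2] in PBS and 61.3 [54.7–68.5] in CFA (6.07 [4.52–8.31]). As counted, without thinning, 10.4% and 38.2% of cells held a UMI, at median depths of 11749 and 14621 UMIs. Within clusters 6, 10 and 16 the *Irf7* ratio was 5.08 [3.40–7.87], 3.23 [1.81–5.94] and 10.2 [4.25–29.7]. The 7 macrophage markers, none of them at 0 in CFA fibroblasts, reached 0.7503% of their summed macrophage level there, a share that carries 1.06 CPM of *Irf7*, where 61.3 was measured. Osteoclast-like macrophage markers reached 9.25% of their source level there by sum, which carries 3.75 CPM of *Irf7*. The part of RNA from other cells in the fibroblast *Irf7* level was not tested.

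Tenocytes held 10.8 and 22.4 CPM (2.08 [1.16–3.79]) and neutrophils 21.7 and 41.8 (1.93 [1.14–3.48]). Macrophage markers in neutrophils were at 1.37% of their macrophage level in PBS and 10.0% in CFA, shares that carry 0.819 and 14.2 CPM of *Irf7* (21.2 in CFA by the median marker), and their part in the ratio was not tested. Endothelial *Irf7* was 57.0 and 57.3 CPM (1.01 [0.855–1.18]), with 1.43 [1.07–1.93] in cluster 7. It was 0.781, 0.944 and 0.712 in clusters 0, 1 and 3, whose intervals held 1. Unnamed cluster 5, which carried endothelial markers and is not in the endothelial values, gave 0.628 [0.463–0.846] for *Irf7*. Mural cells gave 1.15 [0.773–1.71]. Among cell types with under 50 PBS cells, macrophages had 59.6 CPM [34.7–95.4] in PBS (20 cells) and 142 [130–153] in CFA (306 cells), and monocytes 29.3 [10.8–63.9] and 112 [90.4–137]. B cells held 2 and 1 *Irf7* UMIs. Schwann cells held 1 and 10, chondrocytes 3 and 10, and satellite cells 1 and 10, too few in PBS for the 2-fold count.

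**Figure D3:**
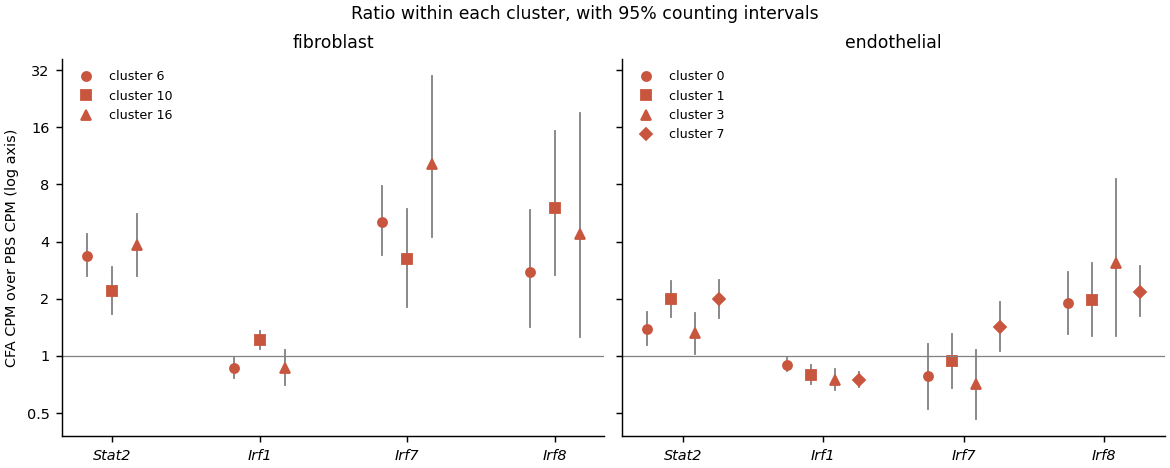
CFA to PBS ratio of Stat2, Irf1, Irf7 and Irf8 on a log axis within each cluster of fibroblasts (left) and endothelial cells (right), with 95% counting intervals. Stat2, Irf7 and Irf8 lie above 1 in all 3 fibroblast clusters, and Irf1 lies below 1 in all 4 endothelial clusters.

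*Irf1*, an early interferon-γ target, was lower in CFA in endothelial and mural cells and higher in Schwann cells, neutrophils and B cells, while its direction in chondrocytes depended on the clustering. Endothelial cells held 569 CPM [549–588] against 723 [699–748] in PBS (0.786 [0.749–0.825]). The ratio was below 1 in each named endothelial cluster, at 0.899, 0.796, 0.752 and 0.7504 in clusters 0, 1, 3 and 7. Unnamed cluster 5, which carried endothelial markers, gave 0.603 [0.546–0.666]. Mural cells held 558 CPM in CFA against 628 in PBS (0.888 [0.821–0.961]). Endothelial markers in mural cells were at 16.9% of their endothelial level in PBS and 7.28% in CFA, shares that carry 122 and 41.4 CPM of *Irf1*, a difference larger than that between the mural levels, and their part in it was not tested. Fibroblasts held 268 against 288, with an interval holding 1 (0.933 [0.866–1.005]). Within fibroblast clusters 6, 10 and 16 the *Irf1* ratio was 0.861, 1.22 and 0.869. A set of 8 immediate early genes, which are induced within minutes of a stimulus including tissue digestion, was summed after these values were seen (*Fos*, *Fosb*, *Jun*, *Junb*, *Egr1*, *Atf3*, *Ier2* and *Ier3*). It too was lower in CFA endothelial cells, 6189 against 9644 CPM, but not in mural cells, with 13196 in CFA and 12721 in PBS. The part of these genes' induction in the *Irf1* level was not tested.

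*Irf1* was higher in CFA in Schwann cells, 538 against 359 CPM (1.496 [1.35–1.66]), where the immediate early sum was 11213 in CFA and 11434 in PBS. Chondrocytes went from 46.5 to 81.9 CPM (1.76 [1.32–2.37]), with a sum of 3818 in PBS and 7622 in CFA, but the ratio was 0.984 with 50 principal components and 0.873 with interferon genes kept in the clustering. Neutrophils had the largest *Irf1* ratio, from 100 CPM [78.7–126] to 324 [304–344] (3.23 [2.55–4.15]). B cells gave 1.30 [1.06–1.61]. Satellite cells (668 and 760 CPM) and tenocytes (255 and 279) had intervals holding 1. The immediate early sum in PBS and CFA was 16696 and 28631 in satellite cells and 9080 and 7484 in tenocytes. In fibroblasts it was 10090 and 9158.5, in neutrophils 2599 and 3409, and in B cells 1142 and 1475.

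Neutrophil values are given by cluster here for *Irf1* and *Ifngr2* only. The neutrophil ratios of the other members, *Stat2*, *Irf7*, *Irf8* and *Ifnar2* among them, are pooled over these clusters. PBS neutrophils were mostly in cluster 14, led by the granule genes *Camp*, *Ngp* and *Ltf* of immature neutrophils (48 PBS and 150 CFA cells), and CFA neutrophils mostly in cluster 15, led by *Il1r2* and *Retnlg* (15 and 179 cells). Within cluster 14 *Irf1* was 79.3 CPM in PBS and 138 in CFA, and within cluster 15 it was 249 in 15 PBS cells and 1008 in CFA. *Ifngr2* in these clusters was 19.04 and 67.1 CPM in cluster 14, and 97.0 and 105 in cluster 15. The *Ifngr2* levels of the libraries were thus close in cluster 15, which had 15 PBS cells, and higher in CFA in cluster 14. The libraries also differed in how their neutrophils were divided between the clusters. The part of this division in the pooled neutrophil ratios was not tested.

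*Irf8*, the myeloid and B lineage factor, marked dendritic cells, at 1924 CPM in PBS and 1612 in CFA. Progenitors followed at 400 and 384 CPM, with T or NK cells, macrophages and monocytes between 173 and 364. In T or NK cells 1 PBS cell held 11 of 16 *Irf8* UMIs and 1 CFA cell 23 of 59, so that level rests on few cells. B cells held 121 and 147 CPM (1.22 [0.938–1.58]).

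Among the other cell types compared, *Irf8* was higher in CFA with an interval above 1 in endothelial cells, satellite cells, fibroblasts, mural cells and chondrocytes. Tenocytes (1.43 [0.841–2.44]) and Schwann cells (1.83 [0.796–4.56]) had intervals holding 1, and neutrophils are described below. Lymphatic cells, 18 in PBS and 12 in CFA and not compared, held 129 CPM [89.1–180] and 75.7 [40.3–130]. Endothelial cells held 30.1 CPM [25.5–35.4] in PBS and 68.4 [61.8–75.5] in CFA (2.27 [1.87–2.76]), and the ratio was above 1 in all 4 clusters, at 1.89, 1.97, 3.09 and 2.18. Satellite cells, the muscle stem cells, held 23.3 CPM (9 UMIs) and 118 CPM (72 UMIs in 34 of 88 cells), a ratio of 5.06 [2.52–11.5]. Fibroblasts held 4.47 and 18.1 CPM (4.05 [2.54–6.70]), and mural cells 17.5 and 27.1 (1.55 [1.004–2.41]). Within mural clusters 11 and 21 the *Irf8* ratio was 2.39 [1.26–4.84] and 1.07 [0.539–2.08]. The 9 PBS UMIs keep the satellite ratio out of the 2-fold counts. Chondrocytes held 1 *Irf8* UMI in PBS and 17 in CFA (13.4 [2.11–562]), 7 of them in 1 cell.

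Macrophages were 20 of the kept PBS and 306 of the kept CFA cells, and their markers were measured beside *Irf8*. They reached 0.634% of their macrophage level in CFA endothelial cells, which carries 1.47 CPM of *Irf8* against the 68.4 measured. The same figures were 0.557% and 1.29 CPM in satellite cells and 0.7503% and 1.73 CPM in fibroblasts, against the 118 and 18.1 measured there. For fibroblasts this depended on the marker list and on how it was summarised. By summed markers, osteoclast-like macrophage markers reached 9.25% of their source level in CFA fibroblasts, which carries 17.2 CPM of *Irf8*, and by the median marker 0.773%, which carries 1.44 CPM. B cell markers reached 12.8% by sum, which carries 18.9 CPM, and 0.445% by the median marker, which carries 0.655 CPM. The same B cell sum carried 13.8 CPM in PBS fibroblasts, where 4.47 CPM was measured. In CFA endothelial and satellite cells the B cell sum carried 11.2 and 6.42 CPM. The part of such RNA in the *Irf8* levels was not tested. In CFA neutrophils macrophage markers reached 10.0%, which carries 23.1 of the 42.8 CPM measured. The neutrophil *Irf8* ratio was 2.26 [1.30–4.24], but it was 0.819 with interferon genes kept in the clustering and 1.14 as a mean over cells, so no direction is given for it.

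**Figure D4:**
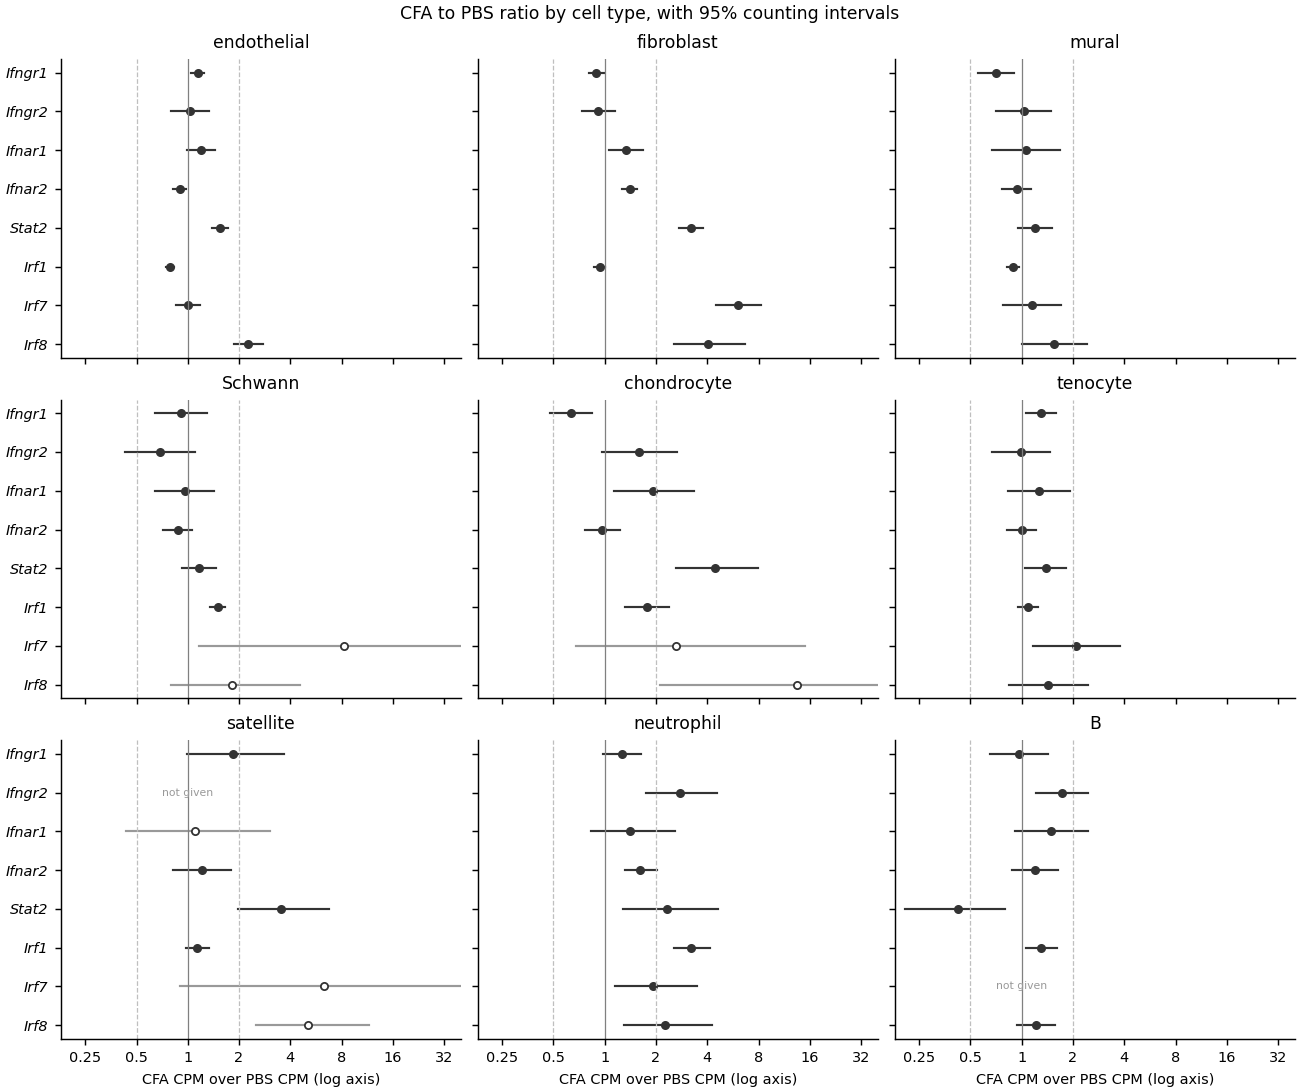
CFA to PBS ratio of each gene (log axis) in 9 cell types with 95% counting intervals; filled points have at least 10 UMIs in each library, open points fewer in PBS, dashed lines mark 2-fold, long intervals are cut at the right edge, and a ratio with under 10 UMIs in both libraries is not given. Fibroblasts show Stat2, Irf7 and Irf8 past 2-fold with both Ifngr genes near 1, and B cells show Stat2 below 0.5.

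The background is the share of genes, among those reaching 10 UMIs in both libraries, whose level differed at least 2-fold in either direction. In fibroblasts it was 8.02%, and 3 of the 8 members with enough UMIs were past 2-fold, all higher in CFA (*Stat2*, *Irf7* and *Irf8*). In endothelial cells it was 7.56% with 1 of 8 members (*Irf8*), and in mural cells 5.62% with 0 of 8. It was 6.31% in Schwann cells with 0 of 6, and 7.91% in chondrocytes and 6.01% in tenocytes with 1 of 6 (*Stat2*) and 1 of 8 (*Irf7*). Satellite cells had a background of 10.2% and 1 of 4 members (*Stat2*), and B cells 3.81% and 1 of 7, lower in CFA (*Stat2*). Neutrophils had the largest background, 19.1%, with 4 of 8 members past 2-fold (*Ifngr2*, *Stat2*, *Irf1* and *Irf8*, the last of which changed direction between settings). The median ratio of the members was 1.37 in fibroblasts and 2.09 in neutrophils, beside 0.980 and 0.893 over all genes, and between 0.935 and 1.67 in the other cell types, beside 0.913 to 1.04.

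Of 17 interferon-γ target genes, 13 of the 14 measured in fibroblasts, 12 of 16 in endothelial cells, 12 of 12 in Schwann cells, 11 of 15 in tenocytes, 10 of 15 in mural cells and 9 of 10 in neutrophils were at least 2-fold higher in CFA, and none was 2-fold lower. In endothelial cells *Gbp4*, a guanylate-binding protein, was 90.8 and 783 CPM, and *Cd74*, the invariant chain of MHC class II, 51.6 and 756. In fibroblasts *Cxcl9*, a chemokine for activated T cells, was 44.1 and 437 CPM and *Nlrc5*, an activator of MHC class I genes, 3.69 and 60.0. *Cxcl10*, a related chemokine, was 59.6 and 69.8 CPM in fibroblasts. In B cells 2 of 13 were at least 2-fold higher. Over all genes passing the same UMI limit, 3.93% in fibroblasts, 3.44% in endothelial cells and 4.23% in Schwann cells were at least 2-fold higher. This share was 3.46% in tenocytes, 1.95% in mural cells, 5.02% in neutrophils and 2.25% in B cells. Both target lists were chosen with earlier results of these data known, so their counts are descriptions and not independent support.

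**Figure D5:**
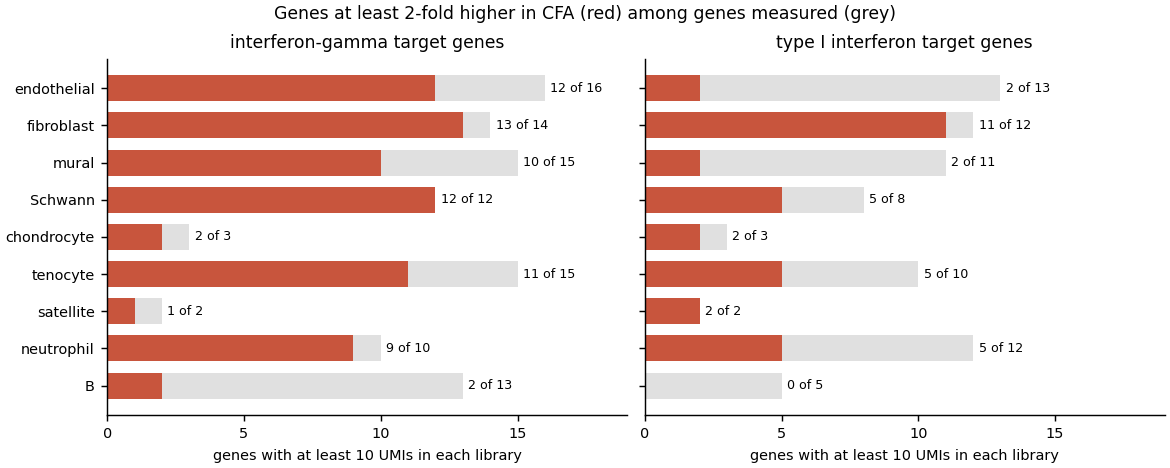
Number of interferon-γ (left) and type I interferon (right) target genes at least 2-fold higher in CFA (red) among those with at least 10 UMIs in each library (grey), by cell type. Fibroblasts have most of both lists (13 of 14 and 11 of 12), while endothelial cells have 12 of 16 and 2 of 13. The lists were chosen with earlier results of these data known.

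Of 15 type I interferon target genes, 13 were matched and 2 (*Mx1* and *Mx2*) were not analysed here, and 11 of 12 measured in fibroblasts were at least 2-fold higher in CFA, against 2 of 13 in endothelial and 2 of 11 in mural cells. *Zbp1*, a sensor of nucleic acids, was 12.8 and 101 CPM in fibroblasts, and *Isg15*, a ubiquitin-like modifier, was 227 and 187 in endothelial cells. Counts in other types were 5 of 8 in Schwann cells, 5 of 10 in tenocytes and 5 of 12 in neutrophils, and B cells had 0 of 5 higher and 1 lower. In cell types where few genes could be measured, the interferon-γ and type I counts were 2 of 3 and 2 of 3 in chondrocytes and 1 of 2 and 2 of 2 in satellite cells. Over all genes passing the same limit, 3.49% in chondrocytes and 4.01% in satellite cells were at least 2-fold higher.

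Among 15 other JAK, STAT and IRF genes, at most 2 were past 2-fold in any cell type. *Jak1*, the kinase shared by both receptors, was 656 and 622 CPM in endothelial cells and 706 and 531 in fibroblasts. Of 6 feedback inhibitors, *Usp18*, which restrains the type I receptor, was 11.1 and 42.5 CPM in fibroblasts, and *Socs1*, which restrains JAK kinases, was 13.1 and 44.7 in Schwann cells and 85.0 and 40.2 in B cells. Of 14 other interferon, receptor and inducer genes, at most 2 could be measured in any cell type, and *Il10rb*, a receptor chain of interferon-λ and interleukin-10, was 78.0 and 68.0 CPM in endothelial cells.

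Across the 12 cell types with at least 20 cells in both libraries, each library a point, the genes whose level was most like *Stat2* were *Gbp6* (Pearson r = 0.8995 over 24 points), *Xaf1* (0.881) and *Irgm2* (0.867). Those most like *Irf7* were *Rap1b* (0.884), *Tapbp* (0.883) and *Oasl2* (0.841). *Irf8* was most like *Pabpc1* (0.925), *Tpr* (0.90001) and *Etv6* (0.886), and *Irf1* most like *Rab10* (0.836), *Ppp1r15a* (0.828) and *Arnt* (0.796). *Ifngr1* was most like *Ppm1h* (0.850), *Ifngr2* like *Apobec1* (0.878), *Ifnar1* like *Gm16014* (0.896) and *Ifnar2* like *Lrmda* (0.826). The points share libraries and depth, and these values are descriptions.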

How the data were processed

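Deposited values were UMI counts per gene and barcode, made by the authors with Cell Ranger 7.0.1 (submitters' processing notes) against mm10, without normalization. The labels name the 3′ v2 kit and the methods v3.1, and intron and strand settings were not given in the sources used here. Barcodes with at least 500 genes, at most 10% mitochondrial and at most 1% hemoglobin UMIs were kept (2667 PBS and 4014 CFA cells, median 7022 and 6510 UMIs).

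Libraries were integrated on 3000 genes, without the members and interferon lists, with SCTransform in Seurat 5.3.0 (R 4.3.3, sctransform 0.4.2), 200 principal components and resolution 1.5. Of 36 clusters, 10 stayed unnamed by markers of 24 cell types. Among these, clusters 5 and 12 carried endothelial markers and are not in the endothelial values. Unnamed clusters were split at resolution 0.5, a step chosen after seeing the data, which gave the monocyte, progenitor, T or NK, dendritic and erythrocyte types. Scrublet (scanpy 1.11.5) marked 21 PBS and 2 CFA cells, too few to rely on, so doublets were kept.

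Counts were summed per library and cell type (Python 3.11.15, scipy 1.17.1). Ratios were compared in cell types with at least 50 cells in each library. A gene entered the 2-fold counts with at least 10 UMIs in each library. All 9 members are named, with list genes from the 2 highest and 2 lowest ratios per cell type among those with at least 50 UMIs in 1 library, and the 3 genes most like a member by Pearson's r of log2(CPM + 10). The ratio step was tested on simulated counts. Members and lists were chosen with earlier results of these data known. Alternatives were other filters, resolution, components, integration genes, doublet scores and a mean over cells. The values of 1 list gene are not reported here.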

Additional observations from a re-analysis of the deposited data

Results flagged for a closer look

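*Stat2* was higher in the CFA library in some cell types and lower in B cells. The CFA to PBS ratio was 3.20 in fibroblasts, 4.42 in chondrocytes, 3.52 in satellite cells and 2.33 in neutrophils, against 0.422 in B cells, and these intervals do not overlap that of B cells. With 1 library per condition the difference between cell types was not tested. The neutrophil ratio is pooled over clusters that were divided differently between the libraries. The B cell value rests on 41 UMIs in PBS and 13 in CFA. Within B cell cluster 17 the interval held 1 (0.676 [0.254–1.63]), and cluster 25 gave 0.286 [0.0691–0.897].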

How the results depend on the processing

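Under the alternative runs the median member ratio ranged from 1.03 to 1.15 in endothelial cells, 1.30 to 1.40 in fibroblasts and 1.58 to 2.34 in neutrophils. It lay on both sides of 1 in mural cells (0.881 to 1.17) and Schwann cells (0.876 to 1.09). In chondrocytes it ranged from 1.19 to 1.84, and in tenocytes, satellite cells and B cells it stayed above 1. Of 694 alternative ratios of single members, 647 lay on the same side of 1 as the reported value. *Irf8* in neutrophils turned from 2.26 to 0.819 with interferon genes kept in the clustering. *Irf1* in chondrocytes was 0.984 with 50 components and 0.873 with interferon genes kept, against 1.76. *Irf8* in endothelial cells was 1.84 as a mean over cells, *Irf7* in tenocytes was 1.89 without the highest 5% of doublet scores, and *Stat2* in neutrophils was 1.55 with no hemoglobin limit. *Irf1* in neutrophils was 5.19 and *Irf7* in mural cells 0.656 without those doublet scores, *Ifnar2* in neutrophils was 1.07 as a mean over cells, and *Irf8* in fibroblasts ranged from 2.60 to 4.13. The cause was not tested. *Irf7* in fibroblasts ranged from 5.03 to 6.49, *Stat2* there from 2.64 to 3.28 and *Stat2* in B cells from 0.302 to 0.466. *Ifng* in CFA T or NK cells was 78.7 CPM without its top cell, an alternative chosen after seeing the data. No paired analysis was possible because each condition had 1 library. Members with under 10 UMIs in a library are limited by depth.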
